A study of Mus musculus with 2 samples.

Results

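The genes described here encode respiratory complexes II, III, IV and V, the mobile carrier cytochrome c and the factors that assemble complex IV. They were chosen by gene name on the array: names that start with Sdh followed by a, b, c or d, with Uqcr, with Cox and a digit, or with Atp5, together with Cyc1, Cycs and Surf1. The rule found 54 genes and 75 probes among 21972 named genes and 41174 probes. Messenger RNA was measured in gastrocnemius, a mostly fast-fibre calf muscle, of male wild-type C57BL/6 mice. The denervated mice were 7 weeks old when the muscle lost its nerve supply and 9 weeks old at sampling, after 14 days. The control mice were also 9 weeks old and are called a sham control by one label and only a control by another, so it is unclear whether they were operated on. RNA of 6 mice was pooled for each group and put on 1 array per pool. Without replicate arrays no test is possible, and each value describes only these 2 pools. Both arrays shared a slide and a scan, so array position and group cannot be told apart.

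The respiratory chain passes electrons from fuels to oxygen across the inner mitochondrial membrane and stores the energy as a proton gradient. Complex II (succinate dehydrogenase) oxidises succinate and hands electrons to ubiquinone, complex III passes them to cytochrome c, complex IV (cytochrome c oxidase) reduces oxygen, and complex V (ATP synthase) uses the gradient to make ATP. Most subunits come from nuclear genes, and complex IV has alternative subunits, some made mainly in heart and skeletal muscle. Skeletal muscle is known for adjusting its mitochondrial content to contractile activity.

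A level is the background-corrected signal of a probe in multiples of its array's 75th percentile, and a log2 difference is denervated minus control. The value after ± combines the error that the scanner software gives each of the 2 signals. It was 0.20 or 0.21 for every measured gene of the rule except Cox4i2 (0.36) and covers technical error only, not the spread between mice. For bright genes it comes almost wholly from the software's preset error of 10% per signal, so it is nearly constant and is not measured from repeated spots. A gene with several probes takes its brightest. Of the 54 genes, 53 were measured, meaning unsaturated and clearly brighter than background on each array. The exception was Cox8c, a testis isoform of complex IV, which was not well above background on either array. A second Sdhc probe cleared background for control muscle alone and was not used. The spot errors and the single array per pool limit how finely genes can be ordered.

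Most of the subunit genes were lower in the denervated pool, by a moderate and similar amount. Of 53 measured genes, 46 (86.8%) were below 0, against 57.2% of 15646 measured genes on the arrays, and their median was -0.68 against -0.11 for all genes. Of the 42 measured structural subunits of complexes II to V, 41 were below 0, with a median of -0.75 and with 29 of them between -0.9 and -0.4. Cox8a was the exception at 0.38 ± 0.20. Few passed 2-fold: 6 of 53 members (11.3%) were at least 2-fold lower, beside 8.58% of all measured genes, and 1 of 53 (1.89%) was at least 2-fold higher, beside 6.92%. The shift of the members was therefore broad rather than deep, and the counts past 2-fold were not far from the background.

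The direction of small differences depends on how the arrays are put on one scale. With spike-in controls as the reference all differences are 0.39 higher, and with no scaling they are 0.43 higher. The median of the structural subunits was then -0.37 and -0.32, and 40 of 42 were below 0 in both cases, Cox6a1 being the gene that crossed. Of all measured genes, 32.8% and 30.3% were then below 0. The members past 2-fold in the lower direction numbered 2 by spike-in scaling, beside 4.19% of all genes, and 1 without scaling, beside 3.89%. They numbered 3 with quantile scaling, beside 6.9%, and 3 with signal-dependent centring, beside 6.8%. Most members are bright: 38 had a mean level of at least 32. Of these 37 were below 0, whereas 59.3% of the 744 measured genes at such levels were, with a median of -0.18. At least 2-fold lower were 4 of the 38, beside 10.3% of the 744, and none was 2-fold higher, beside 5.24%. At levels of at least 128, which 19 members reached, the median of 174 genes was -0.35 and their SD 0.65, against an SD of 0.84 at levels of 1 to 32.

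**Figure D1:**
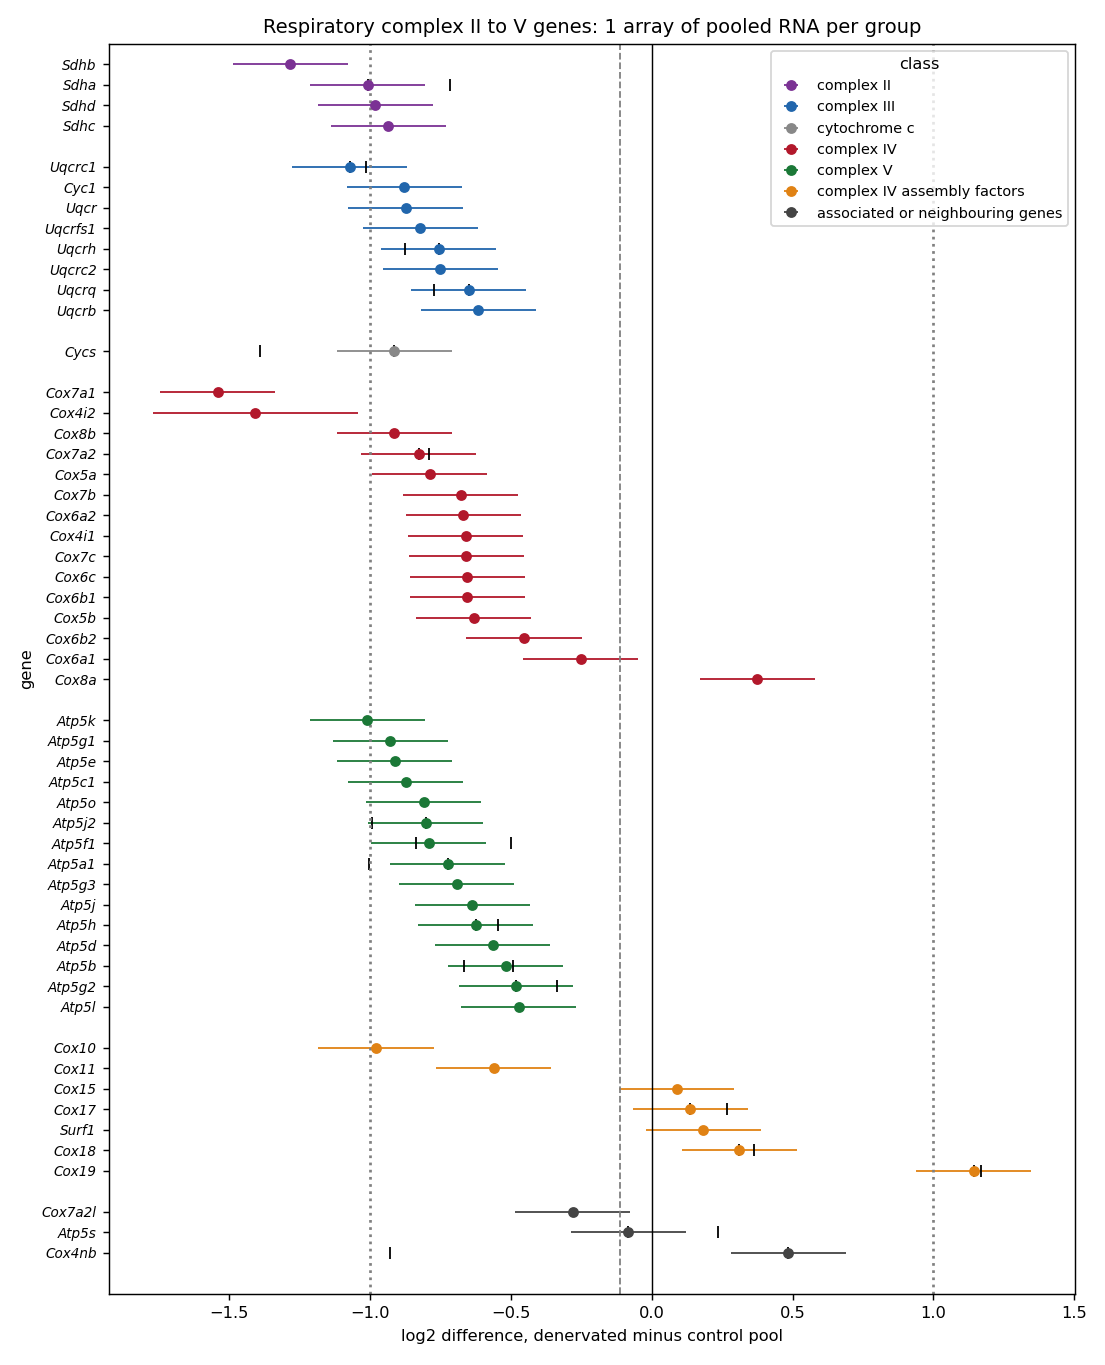
Log2 difference between the denervated and the control pool (horizontal axis) for each of the 53 measured genes (vertical axis), coloured by class, from 1 array per pool. Points are the brightest probe, bars the spot error, black ticks the lowest and highest probe of a gene with several probes, dotted lines 2-fold and the dashed line the median of all genes (-0.11). Complex II, III and V subunits all lie left of 0, and 5 of 7 assembly factors lie right of it.

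Complex II had the lowest median of the complexes. Sdhb, the iron-sulphur subunit, had a level of 73.0 in control and 30.0 in denervated muscle. That is a log2 difference of -1.28 ± 0.20, or 2.43-fold lower. Its probe lies on chromosome 4 between 140238675 and 140243242 (mm8), spanning a splice junction, and belongs to transcript NM_023374. The flavoprotein Sdha went from 26.8 to 13.3 (-1.01 ± 0.20), although its second probe gave -0.72 and so fell short of 2-fold. Both membrane anchors came close to 2-fold, with Sdhd at 82.0 and 41.5 (-0.98) and Sdhc at 46.5 and 24.3 (-0.94). Complex II has only 4 subunits and all were lower, by 1.91-fold (Sdhc) to 2.43-fold (Sdhb), with a median of -0.99. Among the 38 measured subunits of complexes III, IV and V, 4 lay below the highest complex II gene: Cox7a1, Cox4i2, Uqcrc1 and Atp5k. Under the other scalings the number was 3 or 4. The median of complex II was also the lowest of the complexes under every alternative tried.

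Complex III followed with a median of -0.79 over 8 genes, all below 0. The core protein Uqcrc1 was the lowest, with a level of 112 in control and 53.5 in denervated muscle (-1.07 ± 0.20), and its second probe gave -1.01. Cytochrome c1 (Cyc1), which carries the haem that reduces cytochrome c, went from 89.0 to 48.4 (-0.88). The small subunit listed as Uqcr (now Uqcr11) stood at -0.87 and the Rieske iron-sulphur protein Uqcrfs1 at -0.82. These 4 were lower than the complex III median. The highest members were the ubiquinone-binding Uqcrb (-0.61), Uqcrq (-0.65) and the other core protein, Uqcrc2 (-0.75). A second Uqcrq probe at -0.77 was very dim, with a control level of 0.0737 against 269 for the first. The hinge protein gene Uqcrh was at -0.76. The range of 0.46 across the complex is little more than 2 spot errors, so the order within complex III is not settled.

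Cytochrome c itself, encoded by Cycs, had a level of 119 in control and 63.0 in denervated muscle, a difference of -0.91 ± 0.20. Its other probes, which overlap each other in position, both gave -1.39, past 2-fold. All 3 Cycs probes were thus below the complex III median of -0.79, but the size depends on the probe.

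All 15 ATP synthase subunit genes of complex V were below 0, with a median of -0.72. The 5 genes of the catalytic F1 part, central stalk included (Atp5a1, Atp5b, Atp5c1, Atp5d and Atp5e), had a median of -0.72. The other 10, of the membrane part and peripheral stalk, had a median of -0.74. The lowest was Atp5k, the e subunit of the membrane part, with a level of 112 in control and 55.7 in denervated muscle (-1.01 ± 0.20). It was the only complex V gene past 2-fold. Atp5g1 (-0.93) and Atp5e, the epsilon subunit (-0.91), came next. The highest were Atp5l, subunit g (91.8 to 66.2, or -0.47), Atp5g2 (-0.48) and the catalytic beta subunit Atp5b (370 to 258, or -0.52, with 3 probes between -0.67 and -0.49). The alpha subunit Atp5a1 stood at -0.72 by its brightest probe and at -1.0 by the other. Subunit b, listed as Atp5f1 (now Atp5pb), was at -0.79 with probes from -0.84 to -0.50. The probe at -0.50 was dim, with a control level of 0.615 against 166 for the brightest.

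Complex IV was the most varied complex, with a median of -0.66 and a range of 1.91 over 15 measured subunit genes, 14 of them below 0. The subunits with no other form measured here differed little: Cox5a was at -0.79, Cox7b at -0.68, Cox7c at -0.66, Cox6c at -0.66 and Cox5b at -0.63. The subunits measured in several isoforms covered the rest of the range. Setting one isoform's difference against the other's cancels any shift of a whole array, so these contrasts are the same with spike-in scaling and without scaling, and their spot error was 0.29, or 0.42 where the dim Cox4i2 is part of the contrast.

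For the Cox7a subunit, the heart and skeletal muscle isoform Cox7a1 had a level of 225 in control and 77.5 in denervated muscle. It stood at -1.54 ± 0.20, or 2.91-fold lower, the lowest of the 53 genes. Its probe lies on chromosome 7 between 29894078 and 29894689 (mm8, transcript NM_009944). The ubiquitous isoform Cox7a2 went from 107 to 60.5 (-0.83 by one probe and -0.79 by an overlapping one). Both forms were lower, and the muscle form was lower by a further 0.71.

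For the Cox8 subunit the 2 isoforms went opposite ways. The muscle isoform Cox8b had a level of 310 in control and 165 in denervated muscle (-0.91 ± 0.20). The ubiquitous Cox8a went from 17.0 to 22.0, a difference of 0.38 ± 0.20, or 1.30-fold higher. Cox8b minus Cox8a was -1.29, a 2.44-fold shift in their ratio and the largest of the isoform contrasts, and it lay between -1.29 and -1.0 over the scalings. Cox8a was above 0 under all 12 alternatives. Each gene has 1 probe, on chromosome 7 between 140750273 and 140750332 for Cox8b and on chromosome 19 between 7282281 and 7282340 for Cox8a (mm8).

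For Cox6a, the muscle isoform Cox6a2 went from 390 to 246 (-0.67 ± 0.20) and the ubiquitous Cox6a1 from 44.1 to 37.0 (-0.25 ± 0.20, or 0.14 with spike-in scaling). Their contrast of -0.42 shrank to -0.25 with signal-dependent centring and to -0.029 with quantile scaling, so a lower Cox6a2 relative to Cox6a1 is not settled. In all 3 sets the muscle form was the lower one, and under every scaling the contrasts exceeded their spot error for Cox7a and Cox8 but not for Cox6a.

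Isoforms known from other tissues were dim. Cox4i2, the oxygen-regulated form known from lung, had levels of 0.0503 and 0.0190 and a difference of -1.41 ± 0.36. The ubiquitous Cox4i1 went from 254 to 161 (-0.66). With normexp background correction their contrast moved from -0.75 ± 0.42 to -0.10, so Cox4i2 is too dim here to be set against Cox4i1. The testis form Cox6b2 (0.289 to 0.211, or -0.45) and the ubiquitous Cox6b1 (35.1 to 22.3, or -0.65) differed by less than their error. Complex V has a set of its own: Atp5g1, Atp5g2 and Atp5g3 encode the same mature subunit c of the rotor ring with different import signals. They stood at -0.93, -0.48 and -0.69, and the contrast of Atp5g1 with Atp5g2 was -0.45.

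**Figure D2:**
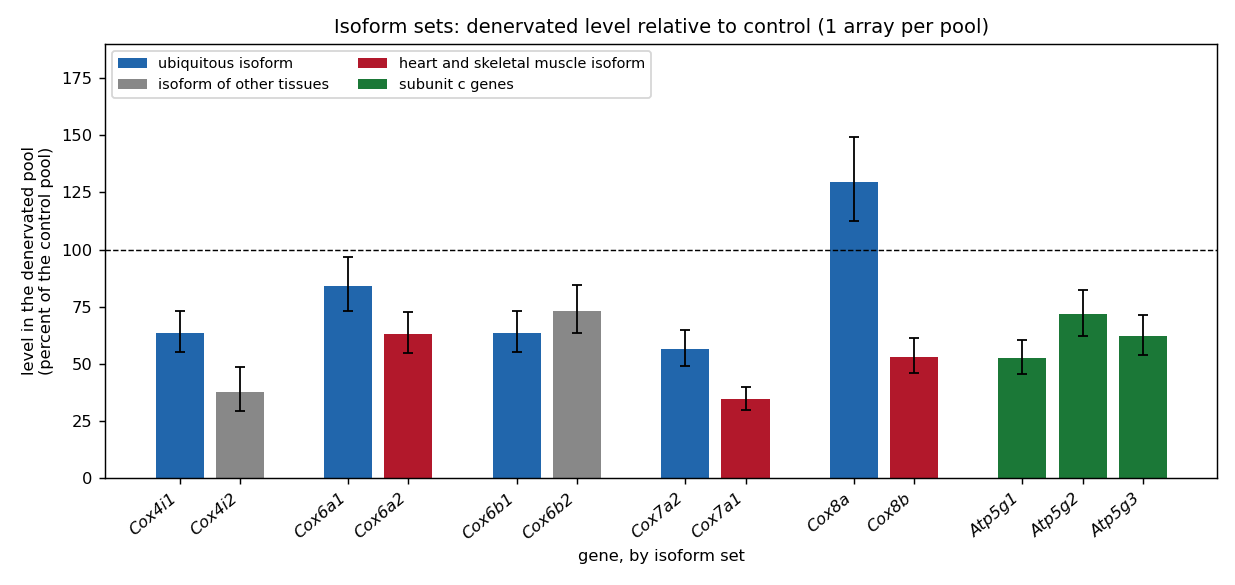
Level in the denervated pool as a percentage of the level in the control pool (vertical axis) for each measured isoform (horizontal axis), with bars coloured by where the isoform is known to be made and error lines for the spot error. Cox7a1 stands at 34.4% against 56.4% for Cox7a2, Cox8b at 53.1% against 129.7% for Cox8a, and Cox6a2 at 62.9% against 84.0% for Cox6a1.

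The factors that assemble complex IV stood on both sides of 0. Of the 7 measured, 5 were above 0 and 2 below, with a median of 0.14, and the median lay 0.80 above that of the complex IV subunits. This gap was 0.64 to 0.88 under the alternatives. With spike-in scaling the median was 0.52. None was at least 2-fold lower and 1 (14.3%) was at least 2-fold higher, beside 8.58% and 6.92% of all measured genes.

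That gene was Cox19, a soluble protein needed for copper delivery to the enzyme, which had a level of 11.2 in control and 24.8 in denervated muscle. It stood at 1.14 ± 0.20, or 2.21-fold higher, and at 1.17 by its second probe. The 2 probes lie on chromosome 5 between 139591458 and 139591589 (mm8), 1 of them against an expressed sequence tag. Cox17, the copper chaperone that loads the assembly pathway, went from 75.5 to 83.0 (0.14, second probe 0.27). Cox11, which helps insert copper into the catalytic subunit, was at -0.56 (12.8 to 8.70). The copper genes thus stood at quite different values.

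The enzymes that make haem A differed too. Cox10, which catalyses the first step, was at -0.98 ± 0.20 (0.779 to 0.396), and Cox15, which acts after it, at 0.09 (1.86 to 1.98). Surf1, an early assembly factor whose loss causes Leigh syndrome in people, was at 0.18 (8.46 to 9.61). Cox18, which helps place a mitochondrially made subunit in the membrane, was at 0.31 (4.26 to 5.29), with a second, overlapping probe at 0.36. Cox15, Cox17, Surf1 and Cox18 stayed above 0 under every alternative, and with 75th-percentile scaling all 4 lay within 2 spot errors of 0. With spike-in scaling they were at 0.48, 0.52, 0.57 and 0.70, beyond 2 spot errors.

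The probes of these factors are mostly dim: 1 of 7 had a mean level of at least 32, against 36 of the 42 measured structural subunits. With signal-dependent centring, which removes any trend of the difference with brightness, the gap was 0.67. The 4 structural subunits with mean levels of 1 to 32 were Sdha (-1.01), Cox7c (-0.66), Cox6b1 (-0.65) and Cox8a (0.38). Of all 11 members at such levels, 6 were below 0, beside 50.7% of 6785 genes, and 1 (Cox19) at least 2-fold higher, beside 6.85%. Cox17 was the 1 gene of the 38 with mean levels of at least 32 that was not below 0.

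**Figure D3:**
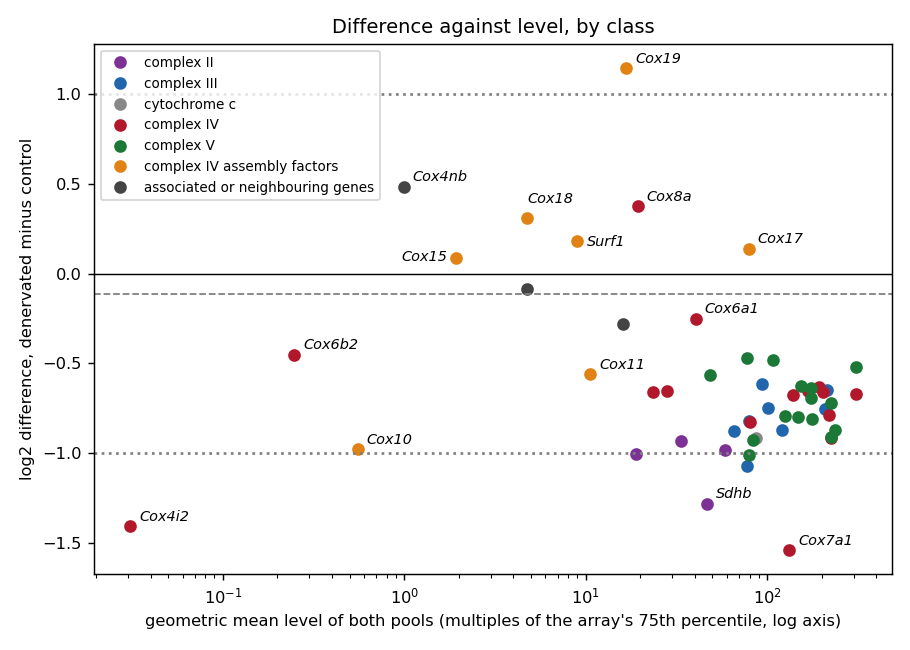
Log2 difference (vertical axis) against the geometric mean level of both pools in multiples of the array's 75th percentile (horizontal log axis) for the 53 measured genes, coloured by class. Dotted lines mark 2-fold and the dashed line the median of all genes. All 36 subunits with mean levels of at least 32 lie below 0, and Cox19 (1.14) is the only gene above the upper 2-fold line.

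The remaining 3 genes are not subunits. Cox7a2l, a relative of Cox7a2 that joins complexes III and IV into supercomplexes, stood at -0.28 (17.6 to 14.5), 0.55 above Cox7a2, and at 0.11 with spike-in scaling. Atp5s (now Dmac2l), a coupling factor associated with ATP synthase, was at -0.08 with a second probe at 0.24. Cox4nb (now Emc8) has its name only from being the neighbour of Cox4i1 on chromosome 8 and encodes a protein of the endoplasmic reticulum membrane complex. Its probes disagreed in sign, at 0.48 and -0.93, so it has no settled direction.

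Probes of one gene give a further check on its value. Some lie against different transcript records, so they can differ for reasons other than technical error, and not all are independent. The probes of Cox18, of Cox7a2 and of Atp5h overlap in position, as do the dimmer Cycs probes, so their agreement is partly built in. Of 17 members with at least 2 measured probes, 15 had all probes on the same side of 0, 14 had all on the same side of 2-fold, and the median range between probes was 0.15. The exceptions in sign were Atp5s and Cox4nb, and those around 2-fold were Sdha, Cycs and Atp5a1.

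Promoter sequences were set beside these differences because most subunits were lower together while some isoforms were not. RefSeq promoter windows on GRCm38.p6, from 250 bases before to 50 after the start, were matched by symbol for 40 of the 54 genes. Each was searched on both strands for letters drawn from sites of factors known to act on respiratory or muscle genes. These were CGCATGCG (NRF1), CCGGAAGT (GABP and other ETS factors), TNAAGGTCA (ERR), AAGATGGCG (YY1) and CAGCTG (an E-box, the site of myogenic factors). For MEF2 the letters were CTA and TAG with any 4 bases between them. That pattern leaves its middle open and is looser than the MEF2 site, so its matches are not counts of MEF2 sites. The NRF1 letters were in 8 of 40 members (20%), against 2.07% of 27025 genes. The ETS letters were in 6 (15%) against 4.31%, the YY1 letters in 3 (7.5%) against 1.64% and the ERR letters in 2 (5%) against 1.43%. The E-box was in 2 (5%) against 18.3%, and the MEF2 letters in 1 (2.5%) against 4.23%. A match describes these letters in this window and is not a binding site.

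Differences are given here for subunits with and without each set of letters. The 7 structural subunits with the NRF1 letters had a median of -0.64 and ranged from -1.07 (Uqcrc1) to -0.25 (Cox6a1). The 25 without had a median of -0.79. Medians with and without the ETS letters were -0.69 (4 genes) and -0.80, and for the ERR letters -0.84 (2 genes) and -0.79. For the YY1 letters and the E-box they were -0.72 (2 genes each) and -0.79, and for the MEF2 letters -0.63 (1 gene) and -0.79. These sets are too small to compare. None of the 5 assembly factors with a promoter window held the NRF1 letters. The ETS letters were in 2 of the 5, Cox10 and Cox15, and Cox10 also held the YY1 letters. The Cox8 and Cox7a pairs are shown because their isoforms differed most among the pairs bright enough to compare, Sdhd and Uqcrc1 because they hold ERR and NRF1 letters in the complexes with the lowest medians, and Cycs for its NRF1 letters. Each sequence runs 5′ to 3′ along its gene, and capitals mark the searched letters on either strand.
Cox8b (chr7:140900397-140900696, minus strand): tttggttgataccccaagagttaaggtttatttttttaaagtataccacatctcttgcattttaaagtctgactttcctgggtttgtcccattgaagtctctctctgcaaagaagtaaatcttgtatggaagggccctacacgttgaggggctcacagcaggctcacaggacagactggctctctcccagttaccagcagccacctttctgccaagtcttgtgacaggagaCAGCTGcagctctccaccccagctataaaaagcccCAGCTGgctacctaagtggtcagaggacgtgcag
Cox8a (chr19:7217567-7217866, minus strand): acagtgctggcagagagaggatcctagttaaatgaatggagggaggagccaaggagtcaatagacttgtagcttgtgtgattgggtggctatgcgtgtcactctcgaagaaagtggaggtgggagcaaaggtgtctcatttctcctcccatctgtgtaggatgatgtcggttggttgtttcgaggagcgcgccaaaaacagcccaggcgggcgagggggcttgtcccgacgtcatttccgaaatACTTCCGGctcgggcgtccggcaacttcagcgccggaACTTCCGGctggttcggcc
Cox7a1 (chr7:30183921-30184220, plus strand): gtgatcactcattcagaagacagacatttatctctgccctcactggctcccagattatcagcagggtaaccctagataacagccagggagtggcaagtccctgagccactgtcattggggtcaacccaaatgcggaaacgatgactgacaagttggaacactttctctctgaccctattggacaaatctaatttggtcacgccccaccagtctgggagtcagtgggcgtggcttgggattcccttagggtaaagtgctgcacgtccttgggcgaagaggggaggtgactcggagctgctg
Cox7a2 (chr9:79759804-79760103, minus strand): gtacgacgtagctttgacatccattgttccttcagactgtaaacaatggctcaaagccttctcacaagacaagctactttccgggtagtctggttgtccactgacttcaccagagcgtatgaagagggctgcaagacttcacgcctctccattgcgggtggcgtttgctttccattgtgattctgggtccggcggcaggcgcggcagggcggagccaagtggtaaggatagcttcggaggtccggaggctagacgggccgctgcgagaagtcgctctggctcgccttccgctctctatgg
Sdhd (chr9:50603800-50604099, minus strand): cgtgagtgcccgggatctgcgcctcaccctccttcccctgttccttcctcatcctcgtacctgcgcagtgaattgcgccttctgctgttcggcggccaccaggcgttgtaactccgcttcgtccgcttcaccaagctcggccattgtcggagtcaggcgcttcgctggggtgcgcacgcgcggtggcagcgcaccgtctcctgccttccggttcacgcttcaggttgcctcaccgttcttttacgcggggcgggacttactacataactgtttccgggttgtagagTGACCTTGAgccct
Uqcrc1 (chr9:108936398-108936697, plus strand): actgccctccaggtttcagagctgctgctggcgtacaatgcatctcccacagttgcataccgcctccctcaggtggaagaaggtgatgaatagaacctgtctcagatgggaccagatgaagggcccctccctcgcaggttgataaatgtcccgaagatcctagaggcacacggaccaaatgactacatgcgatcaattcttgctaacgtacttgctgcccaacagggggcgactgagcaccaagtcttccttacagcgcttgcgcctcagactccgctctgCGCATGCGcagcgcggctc
Cycs (chr6:50566520-50566819, minus strand): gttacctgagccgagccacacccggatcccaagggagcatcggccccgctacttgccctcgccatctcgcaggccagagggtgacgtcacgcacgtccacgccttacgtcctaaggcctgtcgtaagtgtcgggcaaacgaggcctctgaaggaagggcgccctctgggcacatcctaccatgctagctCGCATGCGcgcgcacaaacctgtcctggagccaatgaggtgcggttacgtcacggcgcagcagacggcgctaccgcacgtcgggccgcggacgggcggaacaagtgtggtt

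The Cox8b window holds the E-box letters 19 bases before and 16 after the start, and the Cox8a window the ETS letters 6 before and 31 after it. The Cox7a1 and Cox7a2 windows hold none of the 6 sets of letters. Uqcrc1 has the NRF1 letters 31 bases after its start and Cycs 61 before it, while Sdhd has the ERR letters 36 after it.

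Other mitochondrial genes give the setting of these values. Of 38 genes named as complex I subunits, 37 were below 0, beside 57.2% of all measured genes, and their median was -0.71. At least 2-fold lower were 5 of the 38, beside 8.58%, and none was 2-fold higher, beside 6.92%. The lowest was Ndufb10 at -1.19 and the exception Ndufa12l at 0.29, a gene whose product helps assemble complex I. Among 22 mitochondrial proteins outside the respiratory chain, 14 were below 0 and 8 above, with a median of -0.37, and with spike-in scaling 11 were above 0. Mfn2, which fuses outer membranes, was the lowest at -1.26, followed by citrate synthase Cs (-0.98) and Phb (-0.90, with another probe at -0.07), while the import receptor Tomm20 was at 0.32 and the chaperonin Hspe1 at 0.52. A further list holds assembly and maintenance factors whose names lie outside the rule, together with the ATP synthase subunit Usmg5, the electron carrier enzyme Etfdh and the complex I factor Foxred1. Of its 27 measured genes, 24 were below 0, with a median of -0.29. At least 2-fold lower was 1 of the 27, beside 8.58% of all measured genes, and none was 2-fold higher, beside 6.92%. With spike-in scaling 16 of the 27 were above 0 and the median was 0.099. They ran from the complex III factor Lyrm7 (-1.36 ± 0.26) to the complex IV factor Coa4 (0.98), with the complex IV factor Coa6 at -0.94. Lyrm7, the gene past 2-fold, was dim, with levels of 0.115 in control and 0.0447 in denervated muscle.

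Of 16 regulators of respiratory genes, 5 were at least 2-fold lower, beside 8.58% of all measured genes. None was at least 2-fold higher, beside 6.92%, and the median was -0.48. Perm1 was at -5.86, the coactivator Ppargc1a at -2.02, Ppara at -1.64, Ppargc1b at -1.60 (another probe -0.85) and the nuclear receptor Esrra at -1.44. Esrra is one of the ERR factors whose letters were searched above. Nrf1, also searched, was dim (0.180 to 0.210) and at 0.22 ± 0.21, with another probe at 0.03. By their brightest probes Gabpa was at -0.20 and Yy1 at -0.47. Another Gabpa probe was at 0.44 and the Yy1 probes ran from -0.74 to 0.02, so neither has a settled direction.

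Markers of the cells in the tissue moved as well. In bulk RNA, fewer cells of a type and less RNA per cell cannot be told apart. All 6 muscle fibre markers were present at control levels of at least 154 and were between -0.73 (Myh7) and -0.21 (Tnnt3), with a median of -0.49, although 2 of the 6 were above 0 with spike-in scaling. All 6 macrophage markers were above 0, from 0.84 (Cd14) to 3.53 (Cd68), at control levels of up to 15.9 (Lyz2). Of the 6, 5 were at least 2-fold higher, beside 6.92% of all measured genes. The 4 endothelial markers had a median of -0.49, the 3 adipocyte markers -0.80, the 3 fibroblast markers 0.15 and the 4 nerve and Schwann cell markers -0.71. The brown fat marker Ucp1 was not measured on both arrays. The part of cell make-up in the respiratory gene differences was not tested.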

How the data were processed

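RNA pooled from 6 mice per group went onto single-colour Agilent arrays, 1 per pool, for which 1.65 µg of Cy3-labelled cRNA was fragmented, per the labels. The deposited scanner files hold intensity values from Feature Extraction, version 9.5 per the submitters' processing notes and 9.5.3.1 per the file headers, background-subtracted and detrended within each array with a preset error of 10%. The authors also deposited a table of whole-number values, used as a score in an alternative; set against the intensities, it is the processed signal scaled so that each array's 75th percentile over 45018 spots is 100. Its column medians were 10 and 9.

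Spots of one probe outside the control classes were averaged as log2 intensity, without spots that the deposited files mark as outliers (87 and 81, none of a member), and each array's 75th percentile (788 and 1063) was subtracted. A probe counted as measured when well above background and unsaturated on both arrays. The share of probes well above background was 70.9% for control and 68.4% for denervated muscle. Replicated spots of 173 other probes gave a median SD of 0.06 for the log2 difference. Names follow the array design, with positions on mm8; RefSeq accessions of 23366 probes gave current symbols. With 1 array per group there is no test, so 2-fold was the threshold. The rule for named genes took isoform sets, members past 2-fold, the extremes of each complex, all assembly factors and members whose probes disagree. Members, lists, motifs and rules were chosen with earlier results of these data known. Python 3.11.15, R 4.3.3 and limma 3.58.1 (normexp, offset 50) were used, and the calculation was tested on simulated data. Alternatives covered scaling, background, the deposited table, dim probes, outlier spots and probe choice.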

Additional observations from a re-analysis of the deposited data

How the results depend on the processing

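Of 53 measured genes, 49 kept their sign under all 12 alternatives; Atp5s, Cox4nb, Cox6a1 and Cox7a2l did not. The members at least 2-fold lower numbered 6, and 3 with quantile scaling, 3 with signal-dependent loess centring, 2 with spike-in scaling and 1 without scaling. The median of all members was -0.45 with quantile scaling, -0.29 with spike-in scaling and -0.25 without scaling. With spike-in scaling the medians were -0.61 for complex II, -0.40 for complex III, -0.27 for complex IV, -0.34 for complex V and 0.52 for the assembly factors. Without scaling they were -0.56, -0.36, -0.23, -0.29 and 0.57. With quantile scaling complex IV was at -0.41 and complex V at -0.45, and with loess centring both were at -0.45. Quantile scaling brought Cox6a2 minus Cox6a1 to -0.029 and Cox8b minus Cox8a to -1.0, and normexp background brought Cox4i2 minus Cox4i1 to -0.10. The stricter filter on dim probes left no value for that last contrast. The cause of these moves was not tested beyond the shift each scaling applies to a whole array. No replicate could be left out, and no paired analysis was possible because each group has 1 array.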

Other observations

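Some genes of these families stand on the array under older names and so fell outside the name rule. They were singled out after their values were seen. The ATP synthase membrane subunits Usmg5 (now Atp5md) and 2010107E04Rik (now Atp5mpl) were at -0.85 and -0.68, near the complex V median of -0.72. The complex II assembly factors Sdhaf1, Sdhaf2 and Sdhaf4 were at -0.38, -0.18 and -0.67. Among further complex IV assembly factors, Cox14 was at -0.65 (98.3 to 62.6), Cox20 at -0.12 and Cox16 at 0.29, with a dimmer probe at 0.52. With 75th-percentile scaling only Cox16 of these assembly factors under older names was above 0, whereas 5 of the 7 within the rule were. With spike-in scaling Cox16, Cox20, Sdhaf2 and Sdhaf1 were at 0.68, 0.27, 0.21 and 0.01, and Cox14 and Sdhaf4 at -0.26 and -0.28. Of the 7 within the rule, 2 were below 0 under either scaling. In the further list of genes outside the rule given above, 24 of 27 were below 0. With spike-in scaling 16 of those 27 were above 0.

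Probes for 3 mitochondrially encoded subunits were also singled out afterwards. COX2 of complex IV was at -0.25 (344 to 289), CYTB of complex III at -0.34 (297 to 235) and ND4L of complex I at -0.30 (147 to 120), each ± 0.20. With spike-in scaling they were at 0.14, 0.05 and 0.09. All 3 lay nearer to 0 than the median of -0.75 of the 42 measured nuclear-encoded structural subunits, and 1 of those 42 subunits lay above 0.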
